A study of Homo sapiens with 6 samples.

Results

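The ribosomal DNA windows of a small RNA sequencing experiment are described here. They are all windows that the count table labels rRNA, 160 of 53603 windows. A window is a stretch of 400 bases that runs from 150 bases before to 250 bases after an annotated start site, and its value is the number of reads counted in it. The cells were HEK293T, an epithelial line derived from human embryonic kidney, taken 48 h after transfection with 150 nM of siRNA. In 3 libraries the siRNA was a control and in 3 it was aimed at La, a protein that binds RNA and is the product of the SSB gene. Values of 3 libraries are listed in the order of replicates 1, 2 and 3. The submitters describe the 3 libraries of an arm as biological replicates. The small RNA was treated with a phosphatase and then with a polynucleotide kinase, so fragments with ends other than a 5' phosphate could enter the libraries.

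In human cells the 18S, 5.8S and 28S ribosomal RNAs are made from a single precursor that RNA polymerase I transcribes from tandem repeats. In the precursor the 3 mature RNAs are set apart by an external transcribed spacer at each end (5' ETS and 3' ETS) and by internal transcribed spacers (ITS1 and ITS2), which are cut away and degraded. The 18S rRNA forms the core of the small ribosomal subunit, and 28S and 5.8S rRNA pair with each other in the large subunit. La is known for binding the 3' ends of new RNA polymerase III transcripts, to which the precursor described here does not belong. The start-site window of SSB held 4, 3 and 3 reads with control siRNA and 1, 0 and 0 with La siRNA, too few to enter the test.

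Of the 160 windows, 68 lay in 4 repeats on chromosome 21 (build GRCh38), 2 lay elsewhere on chromosome 21, 90 lay on other chromosomes and 0 on unplaced scaffolds. Repeat 1 held 20 windows over chr21:8205838-8219496 and RefSeq places the genes RNA45SN2, RNA18SN2, RNA5-8SN2 and RNA28SN2 there. Repeat 2 held 11 windows over chr21:8250047-8260415. It is a partial copy, annotated as RNA18SP5, RNA5-8SP10 and LOC110467529. Repeat 3 held 18 windows over chr21:8388885-8402537 with RNA45SN3 and its mature genes, and repeat 4 held 19 over chr21:8433072-8446766 with the RNA45SN1 set. By the mature gene that covered them, 9 windows of the 4 repeats lay in the 5' ETS, 19 in 18S, 4 in 5.8S, 33 in 28S and 3 in the 3' ETS. No window labelled rRNA lay wholly in an internal transcribed spacer, but the 5.8S windows and the 28S start windows reach into the spacers beside those genes.

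The sequences show how little sets one copy apart from another. The 5.8S gene of 153 bases in the GENCODE release 29 models was identical in the 4 repeats. It is shown with 4 related copies on other chromosomes that also carry the label rRNA. All are written 5' to 3' on the strand of the gene, and capitals mark bases that differ from the chromosome 21 gene, while missing bases are not marked.

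5.8S, repeat 1, chr21:8212572-8212724, plus strand: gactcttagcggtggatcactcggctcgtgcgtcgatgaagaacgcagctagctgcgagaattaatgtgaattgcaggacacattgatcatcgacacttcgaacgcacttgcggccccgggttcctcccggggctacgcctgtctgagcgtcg
5.8S copy RNA5-8SP6, chrY:10200155-10200306, plus strand: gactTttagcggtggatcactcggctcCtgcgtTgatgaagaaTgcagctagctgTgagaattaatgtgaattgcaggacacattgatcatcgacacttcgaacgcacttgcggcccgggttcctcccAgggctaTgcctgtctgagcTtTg
5.8S copy, chr14:16057472-16057622, plus strand: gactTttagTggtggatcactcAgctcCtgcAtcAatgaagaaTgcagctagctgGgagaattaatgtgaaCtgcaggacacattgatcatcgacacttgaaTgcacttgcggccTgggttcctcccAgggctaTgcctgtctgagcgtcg
5.8S copy, chr22:11249809-11249959, minus strand: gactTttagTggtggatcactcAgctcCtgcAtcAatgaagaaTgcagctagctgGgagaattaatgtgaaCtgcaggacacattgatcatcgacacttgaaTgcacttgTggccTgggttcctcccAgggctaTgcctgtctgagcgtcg
5.8S copy, chr20:30484925-30485076, minus strand: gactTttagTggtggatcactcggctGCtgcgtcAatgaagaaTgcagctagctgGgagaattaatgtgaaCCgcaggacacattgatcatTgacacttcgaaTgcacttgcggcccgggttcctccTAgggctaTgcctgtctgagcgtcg

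In the alignment the copy on chromosome Y was identical to the chromosome 21 gene at 93.5% of columns, those on chromosomes 14 and 20 at 90.2% each and that on chromosome 22 at 89.5%. Substitutions C5T, G28C, C44T, G130A and C137T, counted from base 1 of the chromosome 21 gene, were present in each of the 4 copies. A second sequence is from inside 18S, where the antisense GENCODE model FP671120.3 covers 923 bases of the gene in repeat 1. This stretch was identical in repeats 1, 3 and 4 and matched at 920 of 924 alignment columns in repeat 2. The first 120 bases of the second 18S window are given to show the kind of read that cannot be assigned to 1 copy, and the line after it gives the hairpin of MIR3687-1, a microRNA gene annotated within the 5' ETS, whose window is described below.

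18S, repeat 1, chr21:8210517-8210636, plus strand: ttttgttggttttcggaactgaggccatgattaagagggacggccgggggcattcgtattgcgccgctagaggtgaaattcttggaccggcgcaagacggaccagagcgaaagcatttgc
MIR3687-1, chr21:8208844-8208904, plus strand: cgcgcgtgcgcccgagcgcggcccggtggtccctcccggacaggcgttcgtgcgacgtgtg

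The counts of the copies lay close together as well. At 16 sites with over 1000 counts that were present in at least 2 repeats, counts of a library differed between repeats 1, 3 and 4 by a factor of 1.15 at most. With the partial repeat 2 included the largest factor was 1.55, at the window over the 3' end of 18S. The 5.8S windows of the 4 repeats differed within a library by a factor of 1.009 at most. Of the 160 rows, 14 had counts identical to those of another row in all 6 libraries, and 2 rows had no count. How reads with several possible positions were placed, and whether strand was used, is not given in the sources used here. The copies are therefore not independent measurements, and a value cannot be assigned to 1 copy.

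Library totals over all windows ran from 3066299 to 4105806 counts. Replicates of an arm differed by far more than sampling noise, with chi-square values per degree of freedom from 48.5 to 266, so no library was a copy of another. La knockdown replicate 2 stood apart in the rRNA windows. The library with the highest normalised count was recorded only for the 146 rRNA windows with enough reads to test, not for other classes. It was La knockdown replicate 2 in 99 of them and La knockdown replicate 1 in 43. Results are therefore given with and without La knockdown replicate 2.

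Along repeat 1 the mean level rose from almost nothing at the start of the precursor to its peak over 5.8S. The window at the precursor start (rRNA_53033) held 40, 22 and 41 reads with control siRNA and 18, 14 and 29 with La siRNA. The next window, 427 bases downstream in the 5' ETS (rRNA_53035), averaged 6152 reads over the 6 libraries, and the arms overlapped in both windows. The window at the 5' end of 18S (rRNA_53037) averaged 23550 reads and the last 18S window (rRNA_51269) 13199. The 5.8S window (rRNA_53041), of which the gene covers 157 bases in the RefSeq annotation, averaged 77081 reads, the highest level of any window labelled rRNA in this repeat. In 28S the window at the 5' end (rRNA_53042) averaged 32170, a window 12068 bases from the precursor start (rRNA_51371) 30719 and the last 28S window (rRNA_53049) 9740. The 3' ETS window (rRNA_53050) held 17.8 reads on average. All windows have the same length, so these levels compare equal stretches, although 5.8S fills less of its window than 18S or 28S does of theirs.

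**Figure D1:**
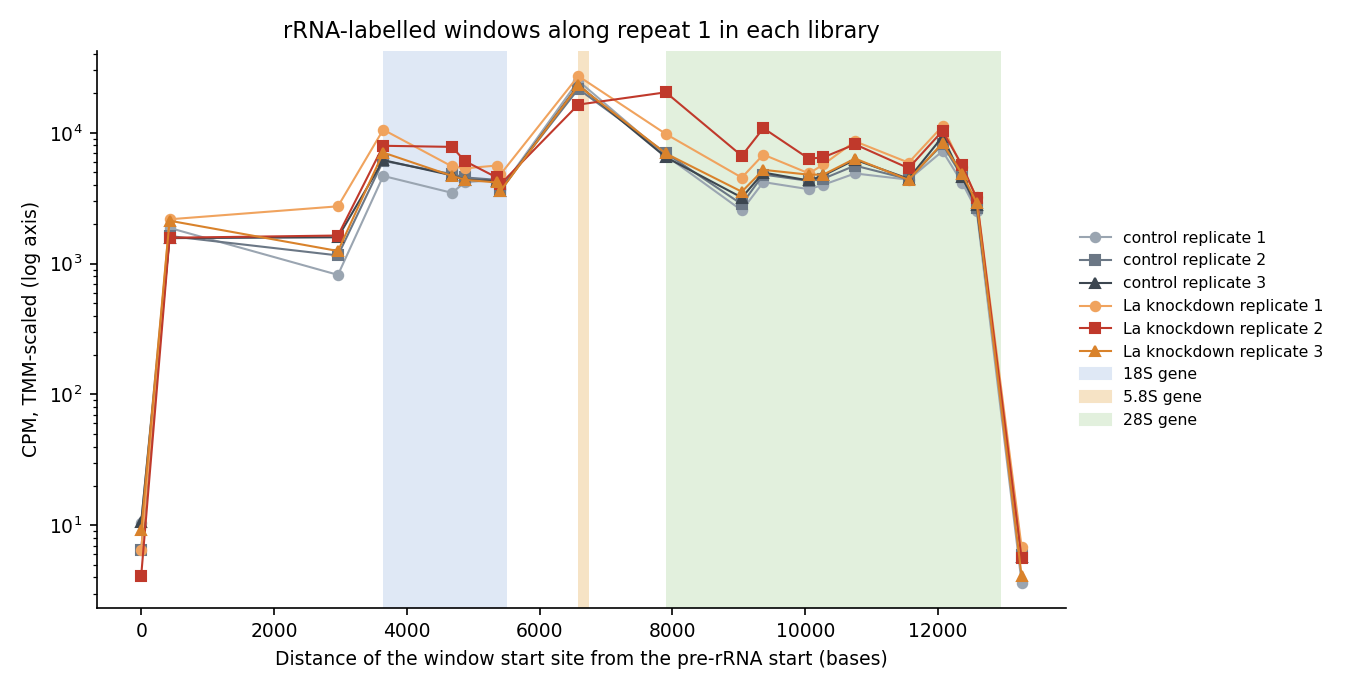
Normalised counts (CPM, reads per 1e6 counted reads, scaled by TMM factors, on a log axis) of the 20 windows of repeat 1 against the distance of the window's start site from the precursor start in bases, 1 line per library, with the mature genes shaded. All libraries are low at both ends, and 5 of the 6 peak at 5.8S. La knockdown replicate 2 peaks at the 28S start (20382 CPM against 16418 CPM at 5.8S), where it lies above the other 5, and it lies below them at 5.8S.

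Other parts of the repeat are covered by windows with another label. In the 5' part of 28S of repeat 1 a window labelled as a long non-coding RNA (lncRNA_41675, chr21:8214176-8214575) held 12776, 12541 and 14550 reads with control siRNA and 11842, 26468 and 12111 with La siRNA. Here too La knockdown replicate 2 was the highest library. In ITS1, the windows lncRNA_41676 of repeat 2 and lncRNA_41678 of repeat 4 held between 114 and 298 reads in every library, far below the mature regions on each side. None of these 3 windows passed the test between the arms (edgeR, adjusted p = 0.240, 0.276 and 0.174).

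No window labelled rRNA differed between the arms at an adjusted p under 0.05. The test was edgeR's quasi-likelihood test on the counts of all windows that passed its low-count filter, 1064 in all, with Benjamini-Hochberg adjustment over all of them. Of the 146 rRNA windows tested, 0 were called higher and 0 lower in the La knockdown arm, where 0.658% of all windows tested were called higher and 4.79% lower. At an unadjusted p under 0.05, 40 of the 146 were higher and 0 lower, beside 9.68% and 14.2% of all windows. DESeq2 called 2 rRNA windows higher (2.16% of all windows) and 0 lower (7.15%). Leaving out La knockdown replicate 3 gave 9 higher calls (1.84% of all windows), 6 of them in 28S, and leaving out any other library gave 0. The unadjusted count was 8 without La knockdown replicate 2 (4.28% of all windows) and 22 without La knockdown replicate 1 (6.42%). Without control replicates 1, 2 and 3 it was 11, 13 and 26 (4.4%, 5.53% and 9.27% of all windows).

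In this fit most differences of the class had the same sign. The fitted log2 fold change (La knockdown over control) was above 0 in 137 of the 146 windows, 93.8%, against 46.8% of all windows tested. Its median was 0.47, against -0.05 over all windows. Without La knockdown replicate 2 the median was 0.23 and 138 of 146 windows were above 0. With no low-count filter 119 of 158 windows were above 0, 75.3%, against 53.1% of all windows. Of the same 146 windows, 103 (70.5%) were above 0 in the authors' deposited table, against 32.2% of the 1064. The 9 windows at or below 0 with all libraries were the 4 precursor start windows, the 4 windows over 5.8S and 1 window over MTRNR2L12. The windows share reads and the same 6 libraries, so their common sign is not that of 146 separate measurements. In 55 of 146 windows (37.7%) every La knockdown library lay above every control library, beside 14.1% of all windows tested, and in 0 every one lay below, beside 17.9%. Leaving out a library cannot lower such a count, so it was not repeated without La knockdown replicate 2.

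These windows were spread unevenly over the repeat. They made up 24 of 33 windows in 28S, 4 of 19 in 18S and 26 of 76 tested on other chromosomes. Copies of a site are counted separately here, and the 4 in 18S were the copies of 1 site, the 18S start window. In the 5' ETS they were 0 of 9, over 5.8S 0 of 4 and in the 3' ETS 0 of 3.

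In the 5' ETS the reads fell into 2 kinds of window. The precursor start windows, low in all 4 repeats, had log2 fold changes from -0.55 to -0.03. The window 427 bases downstream had log2 fold changes from 0.20 to 0.26 in the 4 repeats (adjusted p from 0.422 to 0.555, edgeR). Without La knockdown replicate 3 these ran from 0.06 to 0.14. Over the 9 windows in the 5' ETS the median log2 fold change was 0.20, and -0.047 with no low-count filter. The window that holds MIR3687-1, the hairpin printed above, is labelled rRNA in repeat 1 only (rRNA_53036, chr21:8208801-8209200). It held 3143, 3907 and 6132 reads with control siRNA and 7645, 5565 and 3964 with La siRNA. The arms overlapped, and the log2 fold change was 0.66 ± 0.34 (SE, edgeR adjusted p = 0.241), or 0.73 without La knockdown replicate 2. It was 0.26 without La knockdown replicate 1, the library with the most reads here, and 0.45 without control replicate 1. Reads of the hairpin and of the surrounding spacer are counted together in this window.

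In 18S the difference between the arms was largest at the 5' end and smaller downstream. The 18S start window of repeat 1 (rRNA_53037, chr21:8209483-8209882) held 17925, 20646 and 23841 reads with control siRNA and 29466, 27004 and 22415 with La siRNA. After scaling this was 5654 ± 846 CPM with control siRNA and 8527 ± 1820 CPM with La siRNA (SD, 3 libraries each), and every La knockdown library lay above every control library. The log2 fold change was 0.59 ± 0.23 (SE, edgeR adjusted p = 0.157), and 0.62 without La knockdown replicate 2. Without La knockdown replicate 1 it was 0.38, and without control replicate 1 it was 0.47. In the other 3 repeats the same site had log2 fold changes between 0.58 and 0.61. Downstream the log2 fold changes in repeat 1 were 0.47 at rRNA_53038, which begins with the 18S stretch printed above, then 0.27, 0.14 and 0.17 at the 3' end, and the arms overlapped in these 4 windows. Without La knockdown replicate 1 the last 2 of these values, at rRNA_53040 and rRNA_51269, were -0.02 and 0.03, and without La knockdown replicate 2 those at rRNA_53038 and rRNA_53039 were 0.22 and 0.13. Over the 19 windows in 18S the median log2 fold change was 0.27, and 0.008 with no low-count filter, where the lowest was -0.13.

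A window on chromosome 21 outside the repeats (rRNA_53096, chr21:8988050-8988449) followed the 18S start window closely. It held 18049, 20696 and 23974 reads with control siRNA and 29450, 27446 and 22516 with La siRNA, close to the counts in repeat 1 in each library. Its log2 fold change was 0.59 ± 0.23 (SE, edgeR adjusted p = 0.157), and 0.39 without La knockdown replicate 1. The other window outside the repeats (rRNA_53099) averaged 340.3 reads with a log2 fold change of 0.51, and its arms overlapped. Neither GENCODE nor RefSeq places a gene at these windows.

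The 5.8S windows, the most heavily read, did not separate the arms. In repeat 1 the window chr21:8212421-8212820 held 95576, 73158 and 89412 reads with control siRNA and 75656, 55731 and 72952 with La siRNA. After scaling the arms were at 23251 ± 1660 and 22175 ± 5399 CPM (SD, n = 3 each), with La knockdown replicate 1 the highest and replicate 2 the lowest of the 6 libraries. The log2 fold change was -0.07 ± 0.22 (SE, edgeR adjusted p = 0.853), and it changed sign to 0.09 without La knockdown replicate 2. The sign also depended on the scaling, with log2 fold changes from 0.25 to 0.26 in the 4 repeats under upper quartile factors and from 0.073 to 0.081 when scaling left out the rRNA windows. Other settings moved them down, to between -0.16 and -0.15 with library size alone and between -0.32 and -0.31 with no low-count filter. The SE of 0.22 allows a difference in either direction, and the test does not show that the arms were equal.

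In 28S the difference between the arms was largest at the 5' end, and there it rested mainly on 1 library. The 28S start window of repeat 1 (rRNA_53042, chr21:8213738-8214137) held 25686, 23649 and 25117 reads with control siRNA and 27320, 69185 and 22063 with La siRNA. After scaling, La knockdown replicate 2 was the highest library by a wide margin, replicate 1 lay above the control range and replicate 3 within it. The normalised level was 6736 ± 243 CPM with control siRNA and 12376 ± 7078 CPM with La siRNA (SD, 3 libraries each). The log2 fold change was 0.88 ± 0.34 (SE, edgeR adjusted p = 0.157) with all libraries and 0.30 (adjusted p = 0.494) without La knockdown replicate 2. Without La knockdown replicate 3 it was 1.08 (adjusted p = 0.0464).

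The excess of La knockdown replicate 2 declined along 28S. Its CPM was 2.93 times the median of the other 5 libraries at the 28S start window of repeat 1, 2.08 times at rRNA_53043, 2.19 times at rRNA_53044 and 1.47 times at rRNA_53045. From rRNA_53046 to the 3' end the ratio lay between 1.13 and 1.31. The same ratio was 0.71 at 5.8S and between 1.05 and 1.65 in the 18S windows of repeat 1. The copies in the other repeats gave ratios close to these, up to 3.03 at the 28S start. Which property of that library moves with this gradient was not tested.

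In the second part of 28S the fitted difference was smaller. At rRNA_53046 the reads were 18727, 18982 and 24033 with control siRNA and 24006, 27701 and 20168 with La siRNA. The log2 fold change there was 0.47 ± 0.21 (SE, edgeR adjusted p = 0.208) and 0.41 without La knockdown replicate 2. At rRNA_51371, the second highest 28S window, the reads were 27744, 27670 and 36055 against 31304, 35074 and 26465. The arms overlapped at rRNA_51371, with a log2 fold change of 0.27 ± 0.21 (SE) that was 0.15 without La knockdown replicate 1. At the last 28S window (rRNA_53049) the log2 fold change was 0.22 ± 0.19 (SE), and leaving out 1 library gave values from 0.17 to 0.26. Over the 33 windows in 28S the median log2 fold change was 0.36, and 0.10 with no low-count filter, where the lowest was -0.049.

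**Figure D2:**
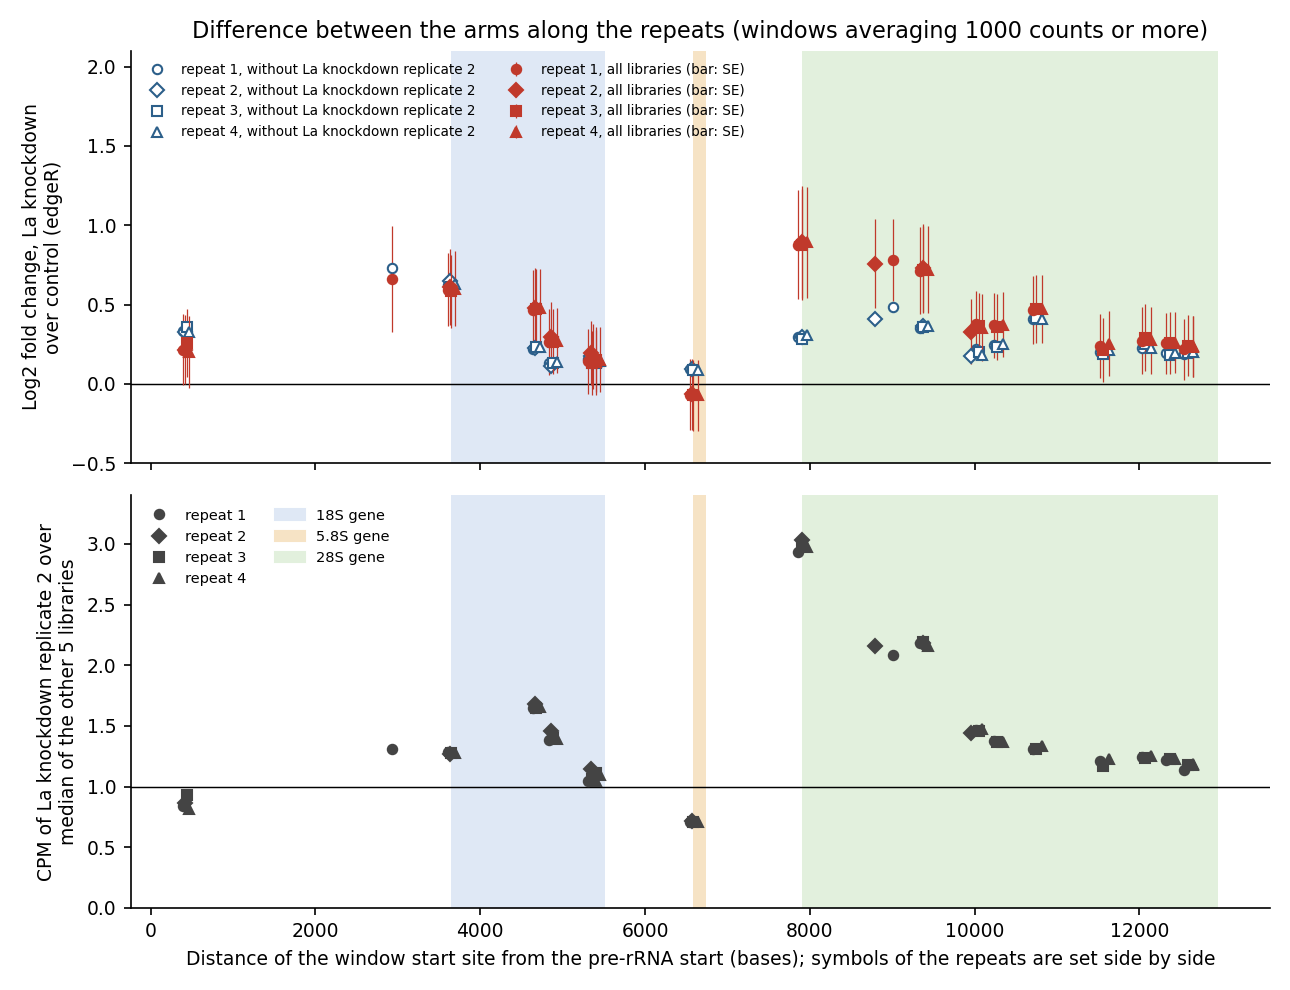
Upper panel: log2 fold change (La knockdown over control, edgeR, bars are the SE) of the windows of the 4 repeats that average at least 1000 counts, against the distance of the start site from the precursor start in bases, with all libraries (filled) and without La knockdown replicate 2 (open). Lower panel: CPM of La knockdown replicate 2 over the median of the other 5 libraries. Copies of a site coincide, the ratio falls from 3.03 at the 5' end of 28S to 1.13 at its 3' end, and filled and open symbols lie farthest apart where the ratio is high.

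Shares of the reads give the same data per library without a scaling factor, and shares within the rRNA counts do not depend on the other RNA classes. The rRNA windows took 34.3%, 39.9% and 44.0% of all counts with control siRNA and 46.7%, 54.5% and 40.6% with La siRNA. The arms overlapped, with a difference of 7.86 percentage points (exact permutation test, two-sided p = 0.2, where 0.1 is the smallest possible for 3 against 3 libraries). Without La knockdown replicate 2 the difference was 4.23 points, and without control replicate 1 it was 5.30. Leaving the 50 largest windows of other classes out of the total gave 62.9% with control siRNA and 72.5% with La siRNA on average. The difference was then 9.64 points (exact permutation p = 0.1), and the arms did not overlap. Whether the arms overlapped in this share thus depended on the total used.

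Within the rRNA counts, 28S took 40.1%, 41.8% and 42.1% with control siRNA and 42.4%, 51.6% and 42.2% with La siRNA. Every La knockdown library lay above every control library by this measure, 2 of them narrowly. The difference was 4.10 points (exact permutation p = 0.1, adjusted p = 0.7 over 7 parts) and 0.99 points without La knockdown replicate 2. The 5.8S share was 27.3%, 22.4% and 23.3% with control siRNA and 21.2%, 12.0% and 22.7% with La siRNA. Its difference of -5.72 points (exact permutation p = 0.2, adjusted p = 0.7) became -2.41 without La knockdown replicate 2, and the arms overlapped. The 18S share was 21.7% ± 1.23 and 22.1% ± 1.05 (SD, n = 3 each), the 5' ETS share 2.05% ± 0.139 and 2.01% ± 0.497, and the share on other chromosomes 9.10% ± 0.336 and 10.1% ± 1.96. For each of these 3 shares the arms overlapped and the exact permutation p was at least 0.7.

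**Figure D3:**
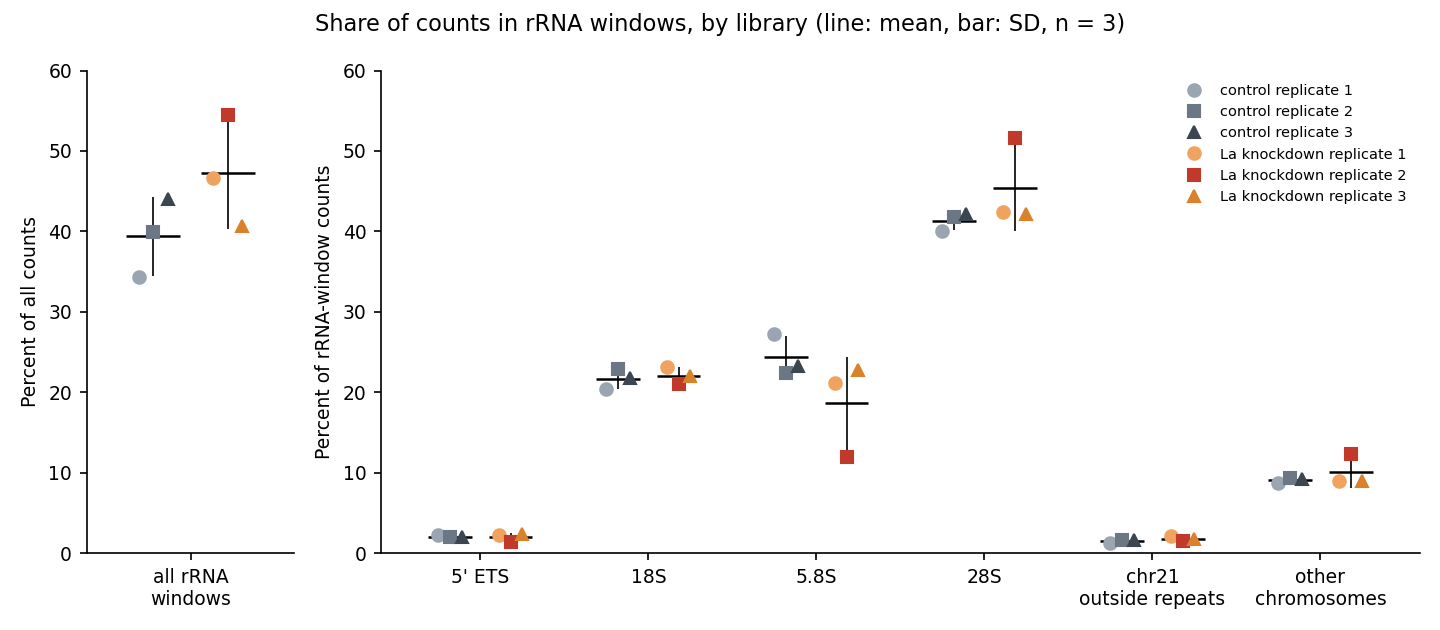
Left: percent of all counts in rRNA windows. Right: percent of the rRNA counts in each part, for each library, with the mean (line) and SD (bar, n = 3) of each arm. La knockdown replicate 2 is the highest library for 28S (51.6%) and the lowest for 5.8S (12.0%), while the other 5 libraries lie between 40.1% and 42.4% for 28S.

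Outside chromosome 21 the label rRNA covers copies scattered over the genome. Of these 90 windows, 76 were tested, 26 averaged at least 1000 reads and 14 fewer than 20. By the GENCODE annotation 34 lay in an intron of a protein-coding gene, 19 overlapped an exon of some gene and 37 lay where no gene is annotated. The log2 fold changes ran from -0.13 to 1.45 with a median of 0.61, and the median was 0.26 without La knockdown replicate 2. That library was the highest in 67 of the 76 windows.

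The most heavily read of them reached the level of the repeats. The window rRNA_51201 (chr1:91387321-91387720), in an intron of HFM1, a gene for a meiotic DNA helicase, held 24880, 25799 and 34327 reads with control siRNA and 26425, 30973 and 24733 with La siRNA. Its arms overlapped, with a log2 fold change of 0.20 ± 0.21 (SE) that was 0.09 without control replicate 1 and 0.11 without La knockdown replicate 1. With no low-count filter this log2 fold change was -0.056. The windows rRNA_52888 and rRNA_52889, which overlap in an intron of the myosin chaperone gene UNC45B on chromosome 17 (chr17:35151007-35151503), had identical counts of 21003, 18885 and 18388 against 20595, 46479 and 16856. As at the 28S start, La knockdown replicate 2 was by far the highest. The log2 fold change was 0.74 ± 0.32 (SE, edgeR adjusted p = 0.188), and 0.25 without that library. The next 4 by level averaged from 4213 to 6557 reads, with log2 fold changes from 0.33 to 0.55 (from 0.10 to 0.40 without La knockdown replicate 2). These were rRNA_51345 (chromosome 5) and rRNA_52348 (chromosome 2), with no annotated gene, and rRNA_53535 and rRNA_52730, in introns of the transporter gene SLCO5A1 and the phosphodiesterase gene PDE3A. The window rRNA_52730 also overlaps an exon of the processed pseudogene AC112777.1.

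The windows that hold the 4 related 5.8S copies were read at far lower levels than the 5.8S windows of chromosome 21. Reads of a copy and of the bases beside it are counted together in each window. The copy on chromosome Y (rRNA_53603), the closest in sequence, held between 228 and 648 reads per library. The copies on chromosomes 14 (rRNA_51709) and 22 (rRNA_51943) held between 19 and 74 and between 18 and 97 reads, and that on chromosome 20 (rRNA_52470) between 6 and 16, too few to be tested. The windows of the 3 tested copies had log2 fold changes of 0.74, 0.90 and 1.10, above the chromosome 21 value of -0.07. La knockdown replicate 2 was at 1.92, 3.20 and 4.41 times the median of the other 5 libraries in these windows, where it was at 0.71 on chromosome 21. Without it the 3 values were 0.41, 0.11 and 0.23.

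The largest log2 fold changes of the class belonged to windows with few reads or with a high La knockdown replicate 2. The highest was at rRNA_52474 (chr16:47504578-47504977), in an intron of PHKB, which encodes a subunit of phosphorylase kinase. It held 35, 30 and 45 reads with control siRNA and 65, 149 and 44 with La siRNA. The arms did not overlap after scaling, and the log2 fold change was 1.45 ± 0.42 (SE, edgeR adjusted p = 0.0811, the lowest of the class) and 0.88 without La knockdown replicate 2. DESeq2 called this window (adjusted p = 0.0128), and so did edgeR without La knockdown replicate 3 (adjusted p = 0.0225). The windows rRNA_51773 (chromosome 17), rRNA_52840 (chromosome 16) and rRNA_51943 had log2 fold changes of 1.26, 1.18 and 1.10, and of 0.40, 0.49 and 0.23 without La knockdown replicate 2. DESeq2 also called rRNA_52840 (adjusted p = 0.0488), and edgeR called rRNA_52840 and rRNA_51773 without La knockdown replicate 3 (adjusted p = 0.0425 and 0.0434).

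A group of 8 windows lay over MTRNR2L genes, nuclear copies of the mitochondrial 16S ribosomal RNA gene MT-RNR2, so that part of the class resembles mitochondrial rather than cytoplasmic rRNA. Over their overlap with a window, MTRNR2L8 matched MT-RNR2 at 94.1% of alignment columns, MTRNR2L12 at 93.6% and MTRNR2L1 at 90.3%. The window rRNA_53188 (chr5:80651022-80651421) over MTRNR2L2 held 396, 494 and 610 reads with control siRNA and 435, 2650 and 530 with La siRNA. La knockdown replicate 2 was 5.01 times the median of the other 5 libraries, the highest ratio of the class, and the read counts of the other 2 La knockdown libraries lay within the control range. The log2 fold change was 1.44 ± 0.56 (SE, edgeR adjusted p = 0.157) and 0.24 without that library. With no low-count filter edgeR called this window (adjusted p = 0.0248, log2 fold change 1.15). A window over MTRNR2L8 (rRNA_52692, chr11:10509163-10509562) held 1326, 1399 and 1522 against 1187, 5067 and 1357, with a log2 fold change of 1.02 that became 0.13 without La knockdown replicate 2. By contrast, rRNA_53136 over MTRNR2L12 held 268, 240 and 225 against 183, 189 and 192. Its log2 fold change was -0.13 ± 0.23, and the arms overlapped after scaling. This contrast was between windows and not between genes. The window rRNA_53138, which overlaps it over MTRNR2L12, held 351, 302 and 318 against 251, 830 and 284. There the log2 fold change was 0.69, and 0.02 without La knockdown replicate 2. Over MTRNR2L8, rRNA_52690 had a log2 fold change of 0.36, below that of rRNA_52692. Without La knockdown replicate 2 the values of rRNA_52690 and rRNA_52692 were close, at 0.07 and 0.13.

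**Figure D4:**
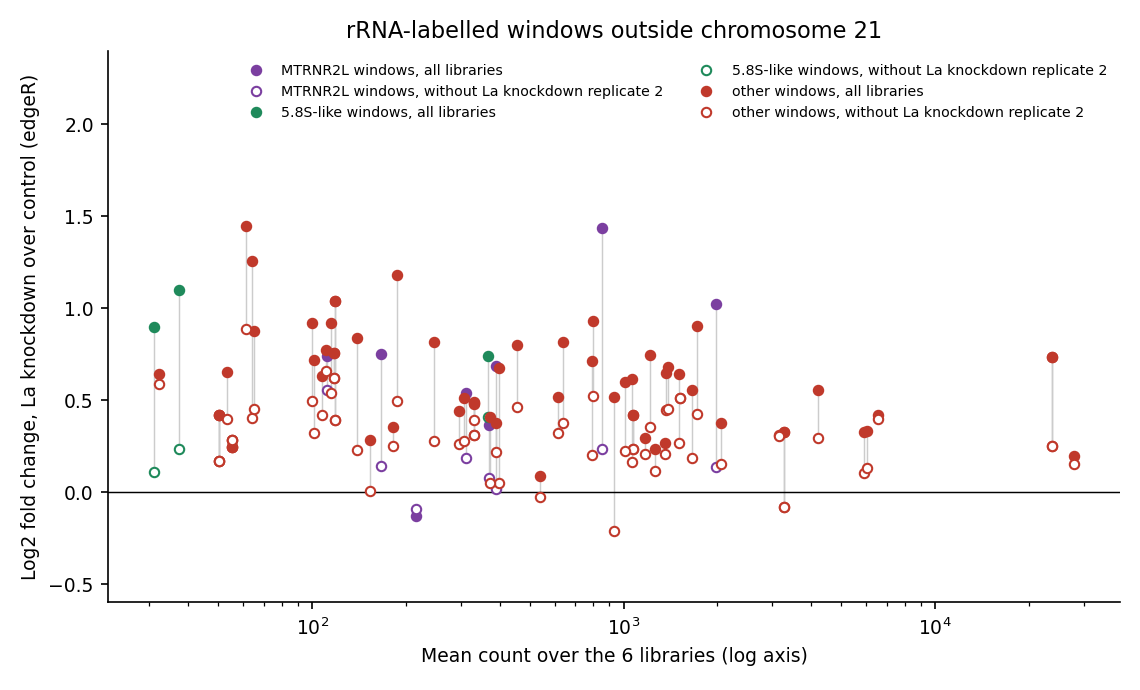
Log2 fold change (La knockdown over control, edgeR) of the 76 tested windows outside chromosome 21 against their mean count on a log axis, with all libraries (filled) and without La knockdown replicate 2 (open, joined by a grey line). Windows over MTRNR2L genes and over 5.8S-like copies are coloured. The filled points run from -0.13 to 1.45 with a median of 0.61, and the open points have a median of 0.26.

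Small RNAs and proteins that serve the making of rRNA gave few readable windows. The list held 34 symbols: the U3, U8, U13, U14, U22 and U17 small nucleolar RNAs, RMRP (the RNA of RNase MRP), RNA polymerase I subunits and their transcription factors, and nucleolar proteins. A window was found for 29 of them, and 11 of 46 windows were tested, with 0 called higher and 0 lower. Among them, the window matched to the start of TAF1D is itself labelled as a small nucleolar RNA window. The median log2 fold change was 0.38, the value of the U3 gene SNORD3B-1. The U3 genes SNORD3A, SNORD3B-1, SNORD3B-2, SNORD3C and SNORD3D were counted separately, so this is not a median over 11 different RNAs or proteins. The U3 genes SNORD3A and SNORD3C, whose RNA guides the early cuts around 18S, had log2 fold changes of 0.36 and 0.57 (edgeR adjusted p = 0.364 and 0.269). SNORD118 (U8), needed for 5.8S and 28S maturation, was at -0.23 (adjusted p = 0.561) and RMRP, which acts in ITS1, at 0.52 (adjusted p = 0.234). The lowest value was that of SNORD13 (U13), which takes part in 18S maturation, at -1.18 (adjusted p = 0.198).

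Among 502 windows of other classes with a mean of at least 100 counts, 3 followed the summed rRNA counts most closely over the 6 libraries on the log2 CPM scale. They were lncRNA_34859 on chromosome 16 (Pearson r = 0.980), and tRNA_51398 and tRNA_52531 on chromosome 1 (r = 0.976 and 0.968). The tRNA windows overlap each other (chr1:632438-632837 and chr1:632539-632938), so they can share reads. The window lncRNA_34859 (chr16:34161229-34161628) lies close to the member rRNA_52840 (chr16:34160324-34160723). The 3 windows are therefore not 3 separate genes shown to follow rRNA. In each of them La knockdown replicate 2 was the highest library, for example 758 reads in lncRNA_34859 where the others held between 465 and 540. Each correlation is a description over 6 points that share libraries and scaling with the rRNA windows.

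In the authors' deposited table of the comparison between the arms, 0 of the 160 rRNA windows had an adjusted p under 0.05, and the lowest adjusted p was 1. Of all windows, 0.153% passed that threshold in the authors' deposited table. At an unadjusted p under 0.05, 5 rRNA windows were higher and 0 lower in the authors' deposited table, beside 0.685% and 1.11% of all windows, and the median log2 fold change there was 0.18 over the windows tested here.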

How the data were processed

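Small RNA of HEK293T cells was sequenced in 6 libraries, 3 per arm. Reads were processed with Trim Galore, Bowtie2, bedtools and edgeR on GRCh38, per the submitters' processing notes, which give no versions or settings. The first table holds raw read counts per window as deposited by the authors, per the file headers. The second holds the authors' deposited log2 fold change, average log2 CPM, F statistic (a score), p-value and adjusted p-value. No count column was left unassigned.

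Positions are printed 1-based. Genes came from GENCODE release 29 and the RefSeq GRCh38.p14 table, and sequences from the GENCODE transcripts, since no genome sequence was used. Sites were matched between repeats by their offset, within 40 bases. Counts were tested with edgeR 4.0.16 in R 4.3.3 (filterByExpr, TMM factors, quasi-likelihood test, Benjamini-Hochberg threshold 0.05), over all 1064 windows that passed, after a check on simulated data. The SE is the absolute log2 fold change divided by the root of F. CPM used TMM-scaled library sizes. For shares, exact permutation tests (two-sided) were run over libraries. Alternatives were other scalings, DESeq2 1.42.0, other filters, collapsed rows, a replicate block and leaving out each library. Figures were drawn with matplotlib 3.10.9.

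The members, lists and tests were chosen with earlier results of these data known. By rule, up to 6 windows per repeat with at least 1000 counts, the 5 highest and 5 lowest log2 fold changes among windows of at least 20 counts, and the 6 most read windows on other chromosomes were eligible for naming. The 18S, 28S and 5' ETS windows given beyond these, the 5.8S copies, the MTRNR2L windows and the windows of other classes in the repeats were chosen after their values were seen.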

Additional observations from a re-analysis of the deposited data

How the results depend on the processing

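The count of 0 rRNA windows called higher became 22 with upper quartile factors (5.45% of all windows were called higher), 2 with DESeq2 (2.16%), 1 with no filter (0.0183%, rRNA_53188) and 2 with a replicate block (1.88%, rRNA_52474 and rRNA_53188, edgeR adjusted p = 0.0331 and 0.0421), and without one library it ranged from 0 to 9. The count called lower was 0 in every setting run. The median over all windows shifted by 0.32 under upper quartile factors and by 0.16 under scaling without the rRNA windows, and the rRNA median of 0.47 ranged from 0.21 (no filter) to 0.78 (upper quartile factors). Libraries with the same number were not paired by the labels, and their deviations correlated by 0.14, 0.23 and -0.46.

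The difference in the 5' ETS share (-0.037 points) reversed to 0.19 in repeat 1 alone and ranged from -0.22 to 0.25 without one library. The 18S difference (0.40 points) ranged from -0.23 to 0.99 and the difference on other chromosomes (0.97 points) from -0.16 to 1.55 without one library, while the 3' ETS difference was -0.00076 in repeat 1 alone. The 28S difference ranged from 0.99 to 5.70 points and the 5.8S difference from -7.77 to -2.41 without one library, with no change of sign.

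The log2 fold changes of the 38 named windows gave 456 values under the alternatives. Of these, 416 kept their sign and side of the threshold, 22 passed it and 18 reversed. Those that reversed were the 5.8S windows and rRNA_53136. For rRNA_53041, rRNA_53058, rRNA_53070 and rRNA_53086 they were 0.26, 0.26, 0.25 and 0.25 with upper quartile factors, 0.078, 0.081, 0.073 and 0.074 with scaling without the rRNA windows, and without one library they ranged from -0.26 to 0.091, -0.26 to 0.093, -0.27 to 0.086 and -0.26 to 0.087, the positive ends without La knockdown replicate 2. With RLE factors rRNA_53041 and rRNA_53058 were at 0.00058 and 0.0041, and with DESeq2 at 0.00058 and 0.0041. rRNA_53136 was at 0.19 with upper quartile factors and 0.024 with scaling without the rRNA windows. These 18 do not include the fit with no low-count filter, where rRNA_51201 also reversed, to -0.056 from 0.20. The cause of these changes was not tested. Windows with few reads, such as the precursor start and 3' ETS windows, are limited by depth.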
